A study of Mus musculus with 12 samples.

Results

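Hearts of trained mice that carried melanoma were compared with hearts of untrained control mice, over all genes. The comparison takes in 6 of the 12 libraries of the series, tumour trained 1, 2 and 3 against control 1, 2 and 3, chosen by their sample labels alone. All mice were male C57BL/6J, 8 weeks old at the start, and both groups carried no genetic change that the labels name. Control mice stayed in their cages without exercise and were labelled saline. Tumour trained mice ran on a treadmill on 5 days a week for 4 weeks, with an adaptation week in which speed went up to 15 m/min. In the next 3 weeks each session had 5 min at a speed of 6 m/min, then 35 min at 12 m/min. From week 2 they were given 100000 B16F10 cells, a mouse melanoma line that seeds the lungs when it enters through a tail vein. The labels do not say that the libraries of a group came from separate mice, so each p-value rests on a spread between libraries that may be technical. The other 2 groups, trained mice without melanoma and tumour mice without training (3 libraries each), are shown beside the comparison as levels only, and the tumour libraries were kept out of every main fit. The question is what still separates the heart from a control heart when training and tumour are combined. Training, tumour cells and the injected fluid all differ between the groups, so their parts in any difference cannot be told apart here.

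Heart muscle keeps a molecular clock in which the activators BMAL1 (gene Arntl) with CLOCK or NPAS2 switch on the Period, Cryptochrome and REV-ERB repressors and the output factors DBP, TEF and HLF, and the repressors then shut the activators off. The activators and the repressors therefore peak in opposite phases of the day, and exercise, feeding and hormones can shift their timing. Cachexia, the wasting that accompanies many tumours, is known in muscle and heart for ubiquitin ligases such as atrogin-1 (Fbxo32), acute phase and glucocorticoid-driven genes, and a return of fetal heart genes. The time of day at which hearts were taken is not given in the sources used here.

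Levels are estimated counts per gene as deposited, given as CPM (counts scaled to a common library total) after trimmed mean of M values (TMM) scaling. The 6 libraries held 9504107 to 10817490 counts, so that 3 counts equal 0.277 to 0.316 CPM. A library protocol names livers whereas the tissue label says heart. Myh6, the main myosin of the adult heart, had the most counts of any gene in all 6 libraries, and 8 cardiomyocyte genes summed to 87895 to 93593 CPM in control and 84068 to 88055 CPM in tumour trained hearts. Of 7 liver genes the sum was at most 9 CPM. Melanocyte genes summed to 14.2, 10.6 and 9.26 CPM in control 1, 2 and 3 and to 7.49, 8.63 and 11 CPM in tumour trained 1, 2 and 3, against 12315, 6447 and 22.9 CPM in tumour 1, 2 and 3. The ranges of tumour trained and control hearts overlapped, and the pigment gene Tyrp1 was at 0 in all 6. The 8 cardiomyocyte genes summed to 16414, 45870 and 84853 CPM in tumour 1, 2 and 3. The levels given below for tumour 1 and 2 thus come from libraries with a low share of heart muscle transcripts, whose part in them was not tested.

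The tumour trained libraries stood apart from the controls in the base composition of their transcripts. Relative to the control mean, the 1 in 5 tested genes with the lowest GC content (31 to 44% GC in the longest annotated transcript) had a median of -0.08, 0.09 and 0.00 on the log2 scale in control 1, 2 and 3, and of 0.35, 0.41 and 0.38 in tumour trained 1, 2 and 3. The same genes were at 0.34, -0.30 and 0.37 in trained 1, 2 and 3, so that trained 1 and 3 lay with the tumour trained libraries and trained 2 lay on the other side of the controls. Across 12283 genes the log2 change from control to tumour trained and the GC content had a Spearman correlation of -0.62, given as a description since the genes share libraries. Of the 1 in 5 genes with the lowest GC content 44.4% were called higher and 0.325% lower, and of the 1 in 5 with the highest 0.326% were called higher and 17.4% lower. What sets the GC trend was not tested. Each result below is therefore given beside the same fit with the GC trend of every library taken out, an alternative chosen after seeing the data.

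**Figure D1:**
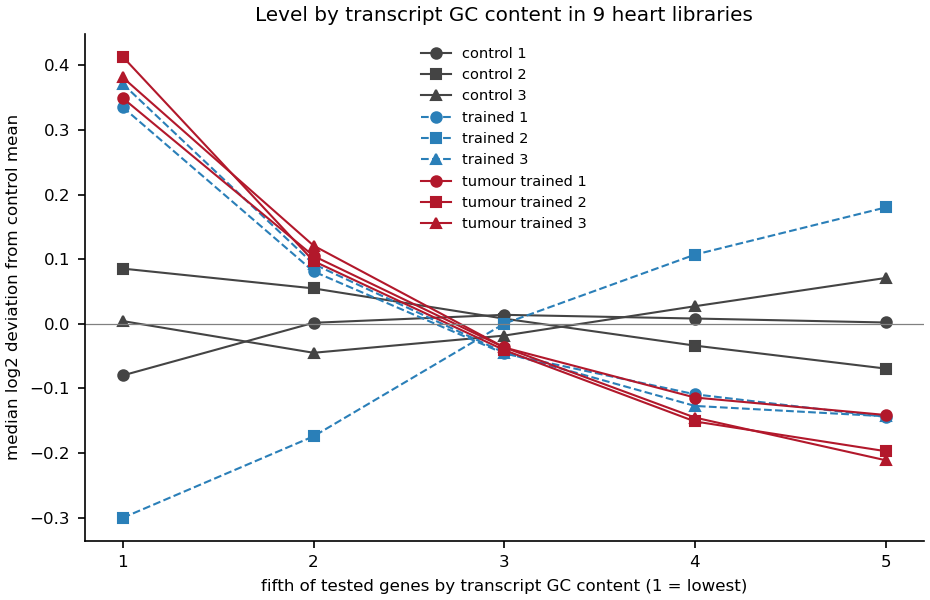
Median log2 deviation from the control mean (y axis) in 5 equal bins of the tested genes ordered by transcript GC content (x axis, 1 is lowest), 1 line for each control, trained and tumour trained library. The 3 tumour trained libraries and trained 1 and 3 slope from 0.34 to 0.41 in the lowest bin to below 0 in the highest, and trained 2 slopes the other way.

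edgeR's quasi-likelihood test on the 6 libraries called 2519 of 12355 tested genes at a Benjamini-Hochberg adjusted p below 0.05, which is 20.4% of them. Of these, 1583 were higher in tumour trained hearts (12.8% of tested genes) and 936 were lower (7.58%). With library size alone as the scaling, 73.59% of the called genes were higher, against 62.84% with TMM. Without tumour trained 1, 2 or 3 the count was 1431, 1020 or 1328, and without a control it was 1872 to 2348. Most of the changes were small: the median size of a called change was 0.49 on the log2 scale, and 272 of the 2519 genes (10.8%) changed at least 2-fold. Every tumour trained library lay above every control library for 22.1% of tested genes and below every control library for 18.0%. Of the 2519 called genes 2480 (98.5%) had groups that did not overlap, so a lack of overlap adds little to a call.

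With the GC trend taken out, 854 genes were called, 405 higher (3.30% of 12283) and 449 lower (3.66%). The fits with and without the correction shared 568 genes in the same direction, 22.5% of the genes called without it and 66.5% of the genes called with it, and 2 genes were called in opposite directions. Of the 568 shared genes 366 were higher and 202 lower. In a fit of 9 libraries, in which the trained hearts share the estimate of the spread, edgeR called 5 genes in the same comparison (2685 at an unadjusted p below 0.05), and in a fit of all 12 libraries 0 (827 at an unadjusted p below 0.05). The shares of all tested genes called higher and lower, 12.8% and 7.58% (3.30% and 3.66% with GC correction), are the background for each count of called list members below. A fit with a robust estimate of the dispersion, which treats genes of unusual spread on their own, called 2608 genes, and genes that lost their call in it are named beside their values. A fit with control 1 as the only control, chosen after seeing that controls 2 and 3 stood apart in the immediate early genes described below, called 2198 genes. Below, a gene called without GC correction for which only a GC-corrected log2 change is printed passed with the correction too.

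**Figure D2:**
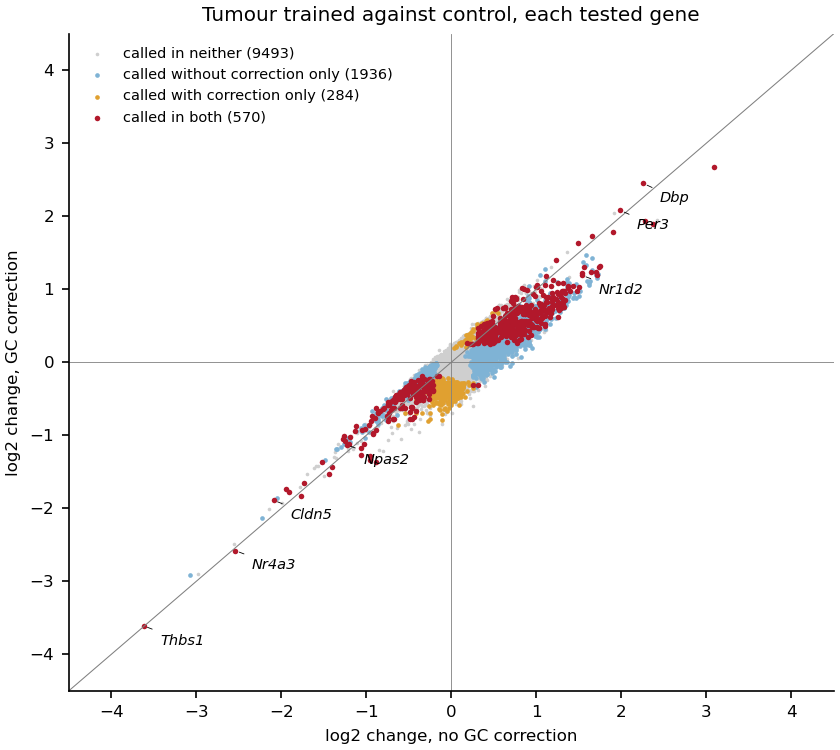
Log2 change from control to tumour trained hearts for 12283 genes, without GC correction (x axis) and with it (y axis); points are genes, coloured by the fit that called them, and the line marks equal values. Among genes higher without correction most lie below the line, while Per3, Dbp and Thbs1 lie close to it.

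Clock genes differed between the groups. The repressors Per2, Per3, Nr1d2 and Ciart and the output factors Dbp, Tef and Hlf were higher in tumour trained hearts, and the activators Arntl and Npas2 and the repressors Bhlhe40 and Nfil3 were lower. The period gene Per3, a repressor of the clock, was the gene with the smallest p of all, at 10.7, 11.9 and 11.7 CPM in control 1, 2 and 3 and 55.1, 42.5 and 38.9 CPM in tumour trained 1, 2 and 3. Its change was 1.99 ± 0.14 on the log2 scale (SE; adjusted p = 0.000457), a 3.96-fold rise, and 2.08 ± 0.14 with GC correction (adjusted p = 0.00039). Of 20 tested members of the clock list 8 were higher and 5 lower, against 12.8% and 7.58% of all tested genes, with a median log2 change of 0.33. With GC correction 6 were higher and 3 lower, with a median of 0.30.

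The promoters of Per3, Ciart and Tef are printed because these genes rose and their upstream sequence holds letters that clock factors are known to bind. They are the 250 bases before the gene start, 5′ to 3′ on the gene's strand, from RefSeq's mouse assembly GRCm38.p6, and capitals mark the D-box TTATGTAA in Per3 and the E-box CACGTG in the others. The Per3 window is chr4:151044666-151044915 on the minus strand, the Ciart window chr3:95882229-95882478 on the minus strand, and the Tef windows chr15:81802423-81802672 and chr15:81811164-81811413, for 2 annotated starts on the plus strand. The build behind the counts is not settled by the sources used here, so these positions belong to the sequence table alone.
Per3: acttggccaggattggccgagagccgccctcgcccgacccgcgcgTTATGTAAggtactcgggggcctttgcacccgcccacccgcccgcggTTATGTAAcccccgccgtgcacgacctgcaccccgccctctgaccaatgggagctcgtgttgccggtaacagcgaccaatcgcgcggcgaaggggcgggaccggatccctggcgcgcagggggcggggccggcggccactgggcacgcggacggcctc
Ciart: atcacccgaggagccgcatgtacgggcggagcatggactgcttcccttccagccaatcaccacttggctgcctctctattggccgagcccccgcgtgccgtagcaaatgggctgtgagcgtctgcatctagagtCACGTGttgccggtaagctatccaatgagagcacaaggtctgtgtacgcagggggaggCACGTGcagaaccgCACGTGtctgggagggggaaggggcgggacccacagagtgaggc
Tef, upstream start: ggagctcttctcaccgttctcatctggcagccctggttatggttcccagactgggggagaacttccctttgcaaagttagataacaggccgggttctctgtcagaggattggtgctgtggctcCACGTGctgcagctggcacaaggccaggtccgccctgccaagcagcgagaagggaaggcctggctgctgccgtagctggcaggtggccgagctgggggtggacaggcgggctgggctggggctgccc
Tef, downstream start: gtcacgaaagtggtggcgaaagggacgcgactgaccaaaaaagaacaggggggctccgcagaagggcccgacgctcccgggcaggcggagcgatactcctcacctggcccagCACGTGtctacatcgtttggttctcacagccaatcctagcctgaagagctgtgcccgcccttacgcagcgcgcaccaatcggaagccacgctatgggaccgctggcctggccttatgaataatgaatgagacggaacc
The first letters of the 2 D-boxes of Per3 lie 205 and 158 bases before the start, and those of the 3 E-boxes of Ciart 116, 58 and 44 bases before it. The D-box, searched on both strands, was in 0.819% of 32851 windows of the same length in the table, and of the 17 tested clock genes that the table held only Per3 had it. The E-box reads the same on both strands and was in 6.02% of all windows, and in 6 of 22 windows (27.3%) of those 17 genes, which belonged to 5 genes. Of these 5, Ciart and Tef rose, whereas Per1, Cry1 and Bhlhe41 did not pass. The windows of Dbp, Nr1d2, Arntl and Npas2 held neither sequence, which says nothing about binding outside them.

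Among the repressors, the REV-ERB gene Nr1d2 rose from 64.9, 48.8 and 40.6 CPM in the 3 controls to 154, 147 and 151 CPM in the 3 tumour trained hearts. Its log2 change was 1.54 ± 0.14 (adjusted p = 0.00119), and 1.19 with GC correction (adjusted p = 0.00702). The 3 tumour trained hearts were nearly level with each other and all far above the controls. Per2, another period gene, was at 6.51, 4.58 and 5.57 CPM in controls and 18.5, 15.6 and 13 CPM in tumour trained hearts (log2 1.49 ± 0.18, adjusted p = 0.00206; 1.63 with GC correction). The REV-ERB gene Nr1d1 did not pass, at 159, 97.4 and 102 against 213, 143 and 133 CPM (log2 0.44 ± 0.21, adjusted p = 0.163), and its groups overlapped. Control 1 had the highest Nr1d1 and Nr1d2 of the 3 controls. The repressors Per1, Cry1, Cry2 and Bhlhe41 did not pass either (log2 -0.65, -0.17, 0.16 and 0.35, adjusted p = 0.228, 0.402, 0.24 and 0.159). Per1, which is also induced by glucocorticoids, was low in control 1 and high in controls 2 and 3 (38.1, 108 and 131 CPM, against 40.1, 71.6 and 65.3 CPM in tumour trained hearts).

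The 3 output factors, which bind D-boxes in metabolic genes, rose. Dbp was at 28.8, 8.97 and 9.36 CPM in controls and 119, 52.4 and 57 CPM in tumour trained hearts, a log2 change of 2.26 ± 0.43 (adjusted p = 0.00757), and 2.45 with GC correction (adjusted p = 0.0169). Replicate 1 was the highest of its group on both sides, yet every tumour trained library exceeded every control. Dbp was not called with robust dispersion (adjusted p = 0.0921). Tef was at 122, 115 and 117 against 229, 186 and 190 CPM (log2 0.76 ± 0.09, adjusted p = 0.00174; 0.88 with GC correction). Hlf rose by less, from 18.2, 22.1 and 26 to 40, 33.5 and 30.3 CPM (log2 0.64 ± 0.14, adjusted p = 0.0114), and did not pass with GC correction (0.48, adjusted p = 0.0821).

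The activators Arntl and Npas2 moved the opposite way. Arntl fell from 28.8, 37.6 and 40.5 CPM in controls to 8.22, 16 and 16.5 CPM in tumour trained hearts, a log2 change of -1.40 ± 0.22 (adjusted p = 0.00371; -1.43 with GC correction, adjusted p = 0.0129). Npas2, the partner of BMAL1 related to CLOCK, fell from 10.6, 13.9 and 10.3 to 4.22, 4.64 and 6.1 CPM (log2 -1.23 ± 0.19, adjusted p = 0.00364; -1.13 with GC correction, adjusted p = 0.0153). In both genes all 3 tumour trained hearts lay below all 3 controls. Clock itself was at 24.3, 39.9 and 40.7 against 37.4, 48.3 and 44.6 CPM and did not pass (log2 0.31 ± 0.17, adjusted p = 0.228).

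Other members of the list that passed were named after their values were seen. Ciart, a repressor also called CHRONO, was higher (3.64, 3.41 and 6.21 against 9.7, 8.95 and 6 CPM; log2 0.89 ± 0.26, adjusted p = 0.0357; adjusted p = 0.0489 with GC correction), with control 3 above tumour trained 3. It was not called without control 1, control 2, tumour trained 1 or tumour trained 2 (adjusted p = 0.0587 to 0.126). Rora, an activator of Arntl, was higher (log2 0.93 ± 0.23, adjusted p = 0.0185) but not with GC correction (0.54, adjusted p = 0.162). The repressor Bhlhe40 was lower in every tumour trained heart (68.6, 61.8 and 60.5 against 88.8, 83 and 87.3 CPM; log2 -0.45 ± 0.08, adjusted p = 0.00501; adjusted p = 0.0152 with GC correction). Nfil3 was lower (log2 -1.30, adjusted p = 0.0349) with overlapping groups and did not pass with GC correction (adjusted p = 0.0953). Rora was not called without control 2, tumour trained 2 or tumour trained 3 (adjusted p = 0.0624 to 0.0679), and Nfil3 without control 2, control 3, tumour trained 1, tumour trained 2 or tumour trained 3 (adjusted p = 0.0502 to 0.12). With robust dispersion neither was called (adjusted p = 0.0764 and 0.195), and Nfil3 was not called by limma-voom (0.0734), by DESeq2 (0.0859) or against control 1 alone (0.712).

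The trained hearts were not tested here. In trained 1, 2 and 3 Per3 was at 19.8, 9.78 and 22.5 CPM, Nr1d2 at 85.9, 38.7 and 109 CPM and Dbp at 21.4, 9.69 and 38.4 CPM, so that trained 1 and 3 for Per3 and Nr1d2, and trained 3 for Dbp, lay between the controls and the tumour trained hearts, and trained 2 lay within or below the controls. Arntl was at 30.6, 30.3 and 25.8 CPM and Npas2 at 11.8, 16.1 and 10.5 CPM there, and both overlapped the controls. Tumour 1, 2 and 3 were at 7.34, 9.41 and 17.9 CPM for Per3 and 14.6, 21.7 and 37.6 CPM for Arntl. The low share of cardiomyocyte transcripts in tumour 1 and 2 limits what these levels say about heart muscle. Per3 and Tef were among the 5 genes called in the fit of 9 libraries. With GC correction that fit called 37, of which 6 were clock genes: Per3 (adjusted p = 0.0248), Tef (0.0248), Arntl (0.0406), Nr1d2 (0.0428), Per2 (0.0428) and Npas2 (0.044).

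**Figure D3:**
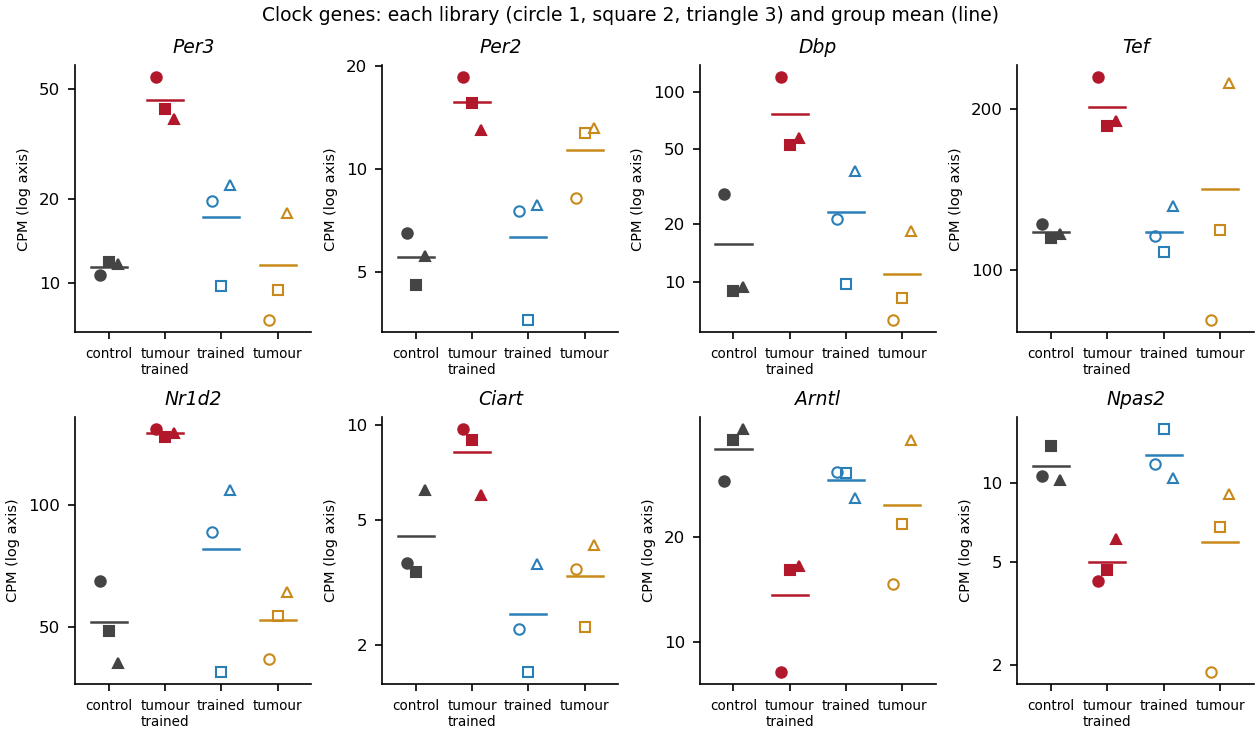
Levels of 8 clock genes in CPM (y axis, log scale) in each library of the 4 groups (x axis); circles, squares and triangles are libraries 1, 2 and 3, lines are group means. The tumour trained libraries lie above the controls for Per3, Per2, Dbp, Tef and Nr1d2 and below them for Arntl and Npas2, and they overlap for Ciart.

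In the list of haem handling, oxidative stress and the NRF2 response 1 of 27 tested genes passed. The haem oxygenase gene Hmox1 was at 14.2, 12.7 and 15.6 CPM in controls, 12.7, 10.7 and 10.5 CPM in tumour trained hearts and 115, 169 and 230 CPM in the untrained tumour hearts. The difference between tumour trained and control was -0.33 ± 0.13 on the log2 scale and did not pass (adjusted p = 0.103), although the groups did not overlap. Fkbp5, a chaperone gene driven by glucocorticoids, was at 18.1, 16.8 and 17.9 against 14, 20.5 and 12.3 CPM (log2 -0.18 ± 0.17, adjusted p = 0.489). The metallothionein gene Mt1 was at 173, 173 and 199 against 165, 167 and 184 CPM (log2 -0.09 ± 0.08, adjusted p = 0.454). Of the 27 genes 0 were higher and 1 was lower, Sod3, the extracellular superoxide dismutase (log2 -0.44 ± 0.09, adjusted p = 0.0111; adjusted p = 0.051 with GC correction, where the mitochondrial Sod2 was lower instead, at -0.42 and adjusted p = 0.00626). Sod3 was not called without tumour trained 2 (adjusted p = 0.055). The glutathione synthesis gene Gclm (log2 -0.04 ± 0.11), the lipid droplet gene Plin2 (0.02 ± 0.07) and the lipase inhibitor gene Angptl4 (0.35 ± 0.28) did not pass either (adjusted p = 0.808, 0.845 and 0.409).

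Mt2, Serpina3n, C4b and Cp were above control. Mt2, the second metallothionein, was at 14.5, 15.9 and 16.1 CPM in controls and 29.1, 21.2 and 26.2 CPM in tumour trained hearts (log2 0.71 ± 0.12, adjusted p = 0.00562; 0.87 with GC correction, adjusted p = 0.00922). Serpina3n, a protease inhibitor of the acute phase, was at 12.8, 12.4 and 12.2 against 22.1, 17 and 23.1 CPM (log2 0.73 ± 0.13, adjusted p = 0.00616; 0.81 with GC correction, adjusted p = 0.0129). In both genes the groups did not overlap, and the untrained tumour hearts were far higher, at 246, 217 and 241 CPM for Mt2 and 105, 296 and 121 CPM for Serpina3n. The complement gene C4b was at 15, 13.4 and 16.1 against 32.4, 17.7 and 30.4 CPM (log2 0.85 ± 0.20, adjusted p = 0.0157; adjusted p = 0.0212 with GC correction), with tumour trained 2 just above the controls, and it was not called without control 2, tumour trained 1 or tumour trained 3 (adjusted p = 0.0552 to 0.0642) or against control 1 alone (adjusted p = 0.0682). Cp, the gene of the copper carrier ceruloplasmin, was at 76.6, 84.2 and 85.8 against 128, 130 and 178 CPM (log2 0.82 ± 0.12, adjusted p = 0.00331; 0.46 with GC correction, adjusted p = 0.0433). Serpina3n, C4b and Cp were the 3 of 18 tested acute phase and cytokine genes that were higher (16.7%, near the 12.8% of all tested genes), and 0 were lower. With GC correction 3 were higher and 0 lower (16.7% and 0.00%, against 3.30% and 3.66% of all genes with a GC value). Lcn2, an iron-binding acute phase gene, missed the threshold at 1.82, 2.24 and 3.16 against 4.85, 3.02 and 5.26 CPM (log2 0.86 ± 0.28, adjusted p = 0.0548). The trained hearts were at 13.3 to 19.3 CPM for Mt2 and 13.2 to 16.3 CPM for Serpina3n. With GC correction and 9 libraries both genes passed (adjusted p = 0.0428 for Mt2 and 0.0428 for Serpina3n).

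Another set of stress genes lay below control. Cdkn1a, the cell cycle inhibitor p21, was at 60.5, 109 and 148 CPM in controls and 14.2, 33.7 and 36.8 CPM in tumour trained hearts (log2 -1.91 ± 0.35, adjusted p = 0.00647; -1.77 with GC correction, adjusted p = 0.0239). Against control 1 alone the log2 change was -1.11 (adjusted p = 0.0335), and with robust dispersion Cdkn1a was not called (adjusted p = 0.0806). Gdf15, a stress hormone linked to loss of appetite, was at 2.97, 4.09 and 5.68 against 1.16, 0.647 and 1.47 CPM (log2 -1.94 ± 0.35, adjusted p = 0.00586; -1.74 with GC correction, adjusted p = 0.0211). Both genes were also low in the trained hearts, at 35.2, 50.5 and 51.3 CPM for Cdkn1a and 1.3, 2.25 and 1.17 CPM for Gdf15 in trained 1, 2 and 3. Of 23 tested glucocorticoid-responsive genes 2 were higher, Mt2 and the sulfotransferase gene Sult1a1 (log2 0.52 ± 0.11, adjusted p = 0.00973; 0.47 with GC correction), and 4 were lower, Cdkn1a, Gadd45g, Errfi1 and Sgk1 (8.70% and 17.4%). The last 3 were high in controls 2 and 3 alone: Errfi1 was at 44.7, 224 and 144 CPM in controls and 29.3, 51.9 and 39.9 CPM in tumour trained hearts, and Sgk1 at 124, 350 and 320 against 102, 142 and 149 CPM. Errfi1 was not called without control 2, control 3, tumour trained 1, tumour trained 2 or tumour trained 3 (adjusted p = 0.053 to 0.0829), and Sgk1 without control 2, control 3, tumour trained 1, tumour trained 2 or tumour trained 3 (adjusted p = 0.0821 to 0.138). Neither was called with robust dispersion (adjusted p = 0.161 and 0.215), by limma-voom (0.0629 and 0.0806) or against control 1 alone (0.683 and 0.814), nor Sgk1 by DESeq2 (0.119). With GC correction 2 of the list were higher and 2, Cdkn1a and Errfi1, were lower. Against control 1 alone the balance turned, to 3 higher and 1 lower, and the median log2 change went from -0.15 to 0.07.

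**Figure D4:**
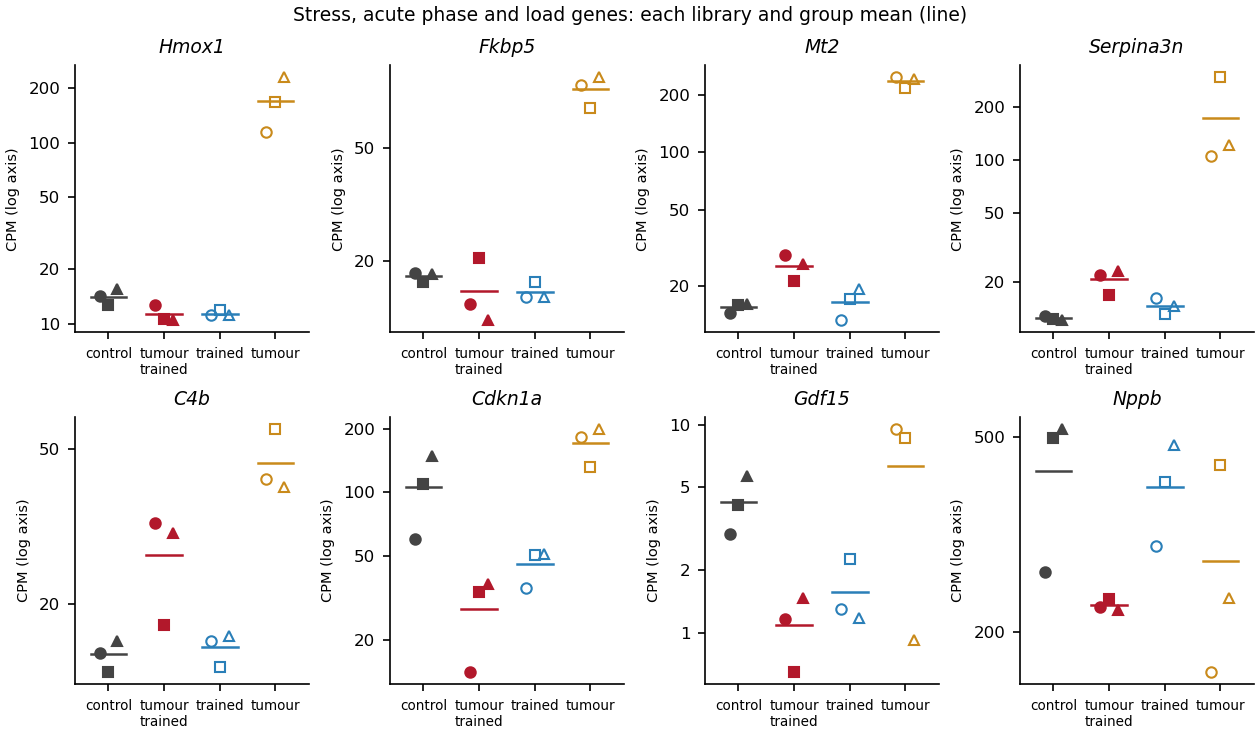
Levels of 8 stress, acute phase and cardiac load genes in CPM (y axis, log scale) in each library of the 4 groups (x axis); circles, squares and triangles are libraries 1, 2 and 3, lines are group means. Tumour trained hearts lie above the controls for Mt2, Serpina3n and C4b and below them for Cdkn1a, Gdf15 and Nppb, and the differences of Hmox1 and Fkbp5 did not pass.

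Of 16 tested cardiac load genes 1 was higher and 6 were lower against all 3 controls, and 4 were higher and 2 lower against control 1 alone. The natriuretic peptide gene Nppb, a marker of wall stress, was at 265, 498 and 519 CPM in controls and 225, 234 and 222 CPM in tumour trained hearts (log2 -0.92 ± 0.20, adjusted p = 0.011; -0.97 with GC correction, adjusted p = 0.0283). The skeletal actin gene Acta1, expressed in the fetal and the loaded heart, was at 400, 362 and 489 against 261, 116 and 152 CPM (log2 -1.25 ± 0.24, adjusted p = 0.00723; -1.08 with GC correction, adjusted p = 0.0269). Rcan1, a target of calcineurin, was at 143, 169 and 184 against 109, 96.5 and 107 CPM (log2 -0.67 ± 0.09, adjusted p = 0.00276; adjusted p = 0.0156 with GC correction). In these 3 genes no tumour trained library reached any control, but for Nppb control 1 was far nearer to them than controls 2 and 3, and against control 1 alone its log2 change was -0.23 (adjusted p = 0.0599). Gdf15, which is also in the list, was at -1.43 against control 1 alone (adjusted p = 0.0579). With robust dispersion Nppb and Acta1 were not called (adjusted p = 0.0957 and 0.0837). Acta1 is also in the list of skeletal muscle markers, which summed to 3852, 3539 and 4323 CPM in controls and 3388, 2937 and 3072 CPM in tumour trained hearts. These sums did not overlap, and 18.0% of single tested genes also lay below every control. Acta1 was at most 489 CPM in any of the 6 libraries, so most of each sum came from other members. Whether their transcripts came from skeletal or heart muscle was not tested. Of those markers 3 passed the filter on low counts, of which Acta1 and the creatine kinase gene Ckm were lower (log2 -0.25 ± 0.07 and adjusted p = 0.0329 for Ckm; adjusted p = 0.274 with GC correction). Ckm was not called without control 3, tumour trained 1, tumour trained 2 or tumour trained 3 (adjusted p = 0.0547 to 0.123), and the part of these markers in the Acta1 difference was not tested. The median log2 change of the load list was -0.34 (-0.19 with GC correction, 1 higher and 4 lower) and -0.18 against control 1 alone. Nppa, the atrial peptide gene, was at 214, 271 and 198 against 159, 150 and 270 CPM and did not pass (log2 -0.25 ± 0.20, adjusted p = 0.415). The slow myosin gene Myh7, a fetal gene, was at 144, 100 and 176 against 214, 230 and 168 CPM and passed only with GC correction (log2 0.53 ± 0.18, adjusted p = 0.059; 0.70 and adjusted p = 0.0366 with it).

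The genes of 3 small heat shock proteins, a family that protects the contractile apparatus, were lower. Hspb1 was at 309, 347 and 384 CPM in controls and 228, 230 and 206 CPM in tumour trained hearts (log2 -0.65 ± 0.08, adjusted p = 0.00239; -0.45 with GC correction, adjusted p = 0.0152). Hspb8 was lower by a smaller step (734, 749 and 783 against 580, 574 and 535 CPM; log2 -0.43 ± 0.06, adjusted p = 0.00258; adjusted p = 0.0154 with GC correction), and so was Hspb6 (log2 -0.34 ± 0.05, adjusted p = 0.00389; -0.19 with GC correction). The cytosolic chaperone gene Hsp90aa1 moved the other way, from 58.2, 71.1 and 76.9 to 105, 133 and 119 CPM (log2 0.79 ± 0.11, adjusted p = 0.00299; 0.55 with GC correction, adjusted p = 0.0239). Of 22 tested heat shock genes and cochaperones 3 were higher and 8 lower (13.6% and 36.4%, against 12.8% and 7.58% of all tested genes), and 2 and 5 with GC correction (9.09% and 22.7%, against 3.30% and 3.66%). Hsp90b1, the HSP90 of the endoplasmic reticulum, rose from 186, 200 and 181 to 350, 385 and 448 CPM (log2 1.05 ± 0.09, adjusted p = 0.00119; 0.72 with GC correction, adjusted p = 0.00613). It was 1 of 5 higher among 24 tested genes of the endoplasmic reticulum and integrated stress responses (20.8%, against 12.8% of all tested genes), of which 2 were higher with GC correction and 2 against control 1 alone. Canx and Hspa5, chaperones of the same compartment, were also higher (log2 0.50 ± 0.09 and 0.37 ± 0.09, adjusted p = 0.00573 and 0.0226) but not with GC correction (adjusted p = 0.226 and 0.157), and Hspa5 was not called without control 2, control 3, tumour trained 2 or tumour trained 3 (adjusted p = 0.0508 to 0.096) or against control 1 alone (adjusted p = 0.088). Trained 1, 2 and 3 were at 125, 44.9 and 138 CPM for Hsp90aa1 and 315, 117 and 361 CPM for Hsp90b1, so that trained 2 was low and the other two high, as in the genes of lowest GC content.

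Immediate early genes, which are switched on within minutes of a stimulus, were low in the tumour trained hearts against 2 of the 3 controls. Fosb was at 0.862, 34 and 38.2 CPM in control 1, 2 and 3 and at 2.11, 3.99 and 2.53 CPM in tumour trained 1, 2 and 3. Atf3 was at 8.04, 371 and 348 against 7.7, 71.7 and 12.5 CPM, and Nr4a1 at 17.4, 601 and 553 against 49.9, 270 and 63.4 CPM. Control 1 lay near the lowest of the tumour trained hearts or below it, and controls 2 and 3 lay far above all of them. Of 26 tested members of the list 0 were higher and 4 were lower, with a median log2 change of -0.92, and 2 were lower with GC correction. Against control 1 alone, an alternative chosen after seeing the data in which the lone control is assumed to vary like the tumour trained libraries, 5 were higher and 2 lower and the median was 0.52. Over the 12726 genes of that fit 12.1% were called higher and 5.21% lower. The bases TGACG, the core of the site that the cAMP-responsive factor CREB binds, searched on both strands, were in 21 of 32 upstream windows (65.6%) of the 23 tested members that the sequence table held and in 17.8% of all windows. Several genes had more than 1 window, some of them overlapping, and the 21 windows belonged to 15 of the 23 genes. The windows of Jund and Ier5, described next, held no TGACG. The full CREB site TGACGTCA was in 9.38% of the 32 windows (1.55% of all windows) and the E-box in 18.8% (6.02%). The CArG box, CC then 6 of A or T then GG, was in 18.8% (1.47%), from 3 genes. The AP-1 site TGANTCA was in 3.12% (6.75%), the heat shock element in 6.25% (6.60%) and the D-box in 0.00% (0.819%).

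The 4 genes of the list that passed were Jund, Nr4a3, Ier5 and Fosb. Jund, an AP-1 subunit, was at 93.8, 117 and 168 against 63.2, 79.7 and 62.5 CPM and was the only 1 of them whose groups did not overlap (log2 -0.89 ± 0.18, adjusted p = 0.00968; adjusted p = 0.0471 with GC correction). Nr4a3, an orphan nuclear receptor, was at 16.1, 116 and 165 against 13.3, 22.1 and 15.6 CPM (log2 -2.54 ± 0.62, adjusted p = 0.0189; adjusted p = 0.0438 with GC correction). The log2 change of Nr4a3 was 0.07 against control 1 alone (adjusted p = 0.874) and that of Fosb was 1.71 (adjusted p = 0.0553), against -3.07 ± 0.89 with all 3 controls (adjusted p = 0.0352; adjusted p = 0.0822 with GC correction). Ier5, a regulator of the heat shock response, was at 34.3, 71.8 and 86.9 against 29.1, 40.3 and 23.9 CPM (log2 -1.05 ± 0.29, adjusted p = 0.0301; adjusted p = 0.0836 with GC correction). Nr4a3 was not called without control 2, control 3, tumour trained 1, tumour trained 2 or tumour trained 3 (adjusted p = 0.0532 to 0.0741), Fosb without control 2, control 3, tumour trained 1, tumour trained 2 or tumour trained 3 (adjusted p = 0.0938 to 0.114), and Ier5 without control 2, control 3, tumour trained 1 or tumour trained 3 (adjusted p = 0.0879 to 0.111). With robust dispersion none of the 4 was called (adjusted p = 0.0649 for Jund, 0.154 for Nr4a3, 0.178 for Ier5 and 0.205 for Fosb). Nr4a3, Fosb and Ier5 were not called by limma-voom (adjusted p = 0.127, 0.45 and 0.0546), nor Fosb and Ier5 by DESeq2 (0.0618 and 0.0796). The log2 change of Egr3 turned from -2.56 to 2.30 against control 1 alone, and that of Fos from -1.02 to 2.79. Egr3 (1.15, 61.1 and 39.2 against 4.74, 8.84 and 3.68 CPM; log2 -2.56 ± 0.86, adjusted p = 0.061) and Fos (4.4, 93.8 and 88.6 against 32.8, 49.5 and 9.79 CPM; log2 -1.02 ± 0.76, adjusted p = 0.372) did not pass. The handling of the animals before the hearts were taken is not given in the sources used here.

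Genes outside that list shared the split of the controls. Thbs1, a matrix protein that activates TGF-beta, had the lowest fitted change among called genes without overlap, at 17.5, 215 and 185 CPM in controls and 8.65, 14.6 and 10.6 CPM in tumour trained hearts (log2 -3.62 ± 0.72, adjusted p = 0.0084; -3.61 with GC correction, adjusted p = 0.0243). Against control 1 alone it was -0.64 (adjusted p = 0.0738). The endothelial tight junction gene Cldn5 was at 32.8, 116 and 158 against 21.7, 26.3 and 24.1 CPM (log2 -2.09 ± 0.43, adjusted p = 0.00971; -1.89 with GC correction and -0.46 against control 1 alone, adjusted p = 0.0392). The stress gene Gadd45g was at 6.99, 31.6 and 31.9 against 6.64, 6.36 and 4 CPM (log2 -2.05 ± 0.48, adjusted p = 0.016; adjusted p = 0.0508 with GC correction; -0.31 against control 1 alone, adjusted p = 0.506). These 3 genes come from a ranking that takes only genes whose groups do not overlap, so their lack of overlap is no finding. Control 1 was far nearer to the tumour trained libraries than the other controls. Gadd45g was not called without control 2, control 3, tumour trained 2 or tumour trained 3 (adjusted p = 0.052 to 0.066). With robust dispersion none of the 3 was called (adjusted p = 0.1 for Thbs1, 0.107 for Cldn5 and 0.13 for Gadd45g), nor were Thbs1 and Gadd45g by limma-voom (0.0876 and 0.0817). Slc16a13, Sema4c, Plekho2 and Arid5a, also among the 15 lowest, had log2 changes of -1.49, -1.21, -1.20 and -1.20 with all controls and of -0.25, -0.24, -0.35 and -0.25 against control 1 alone. With GC correction Plekho2 alone of these 4 passed (adjusted p = 0.0408), and all 4 lost the call when 1 library was left out, Plekho2 without tumour trained 1 or tumour trained 2 (adjusted p = 0.05 to 0.0523) and the others without 3 to 5 of the 6. With robust dispersion none of the 4 was called (adjusted p = 0.0878, 0.113, 0.0946 and 0.115). Why the controls split was not tested.

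**Figure D5:**
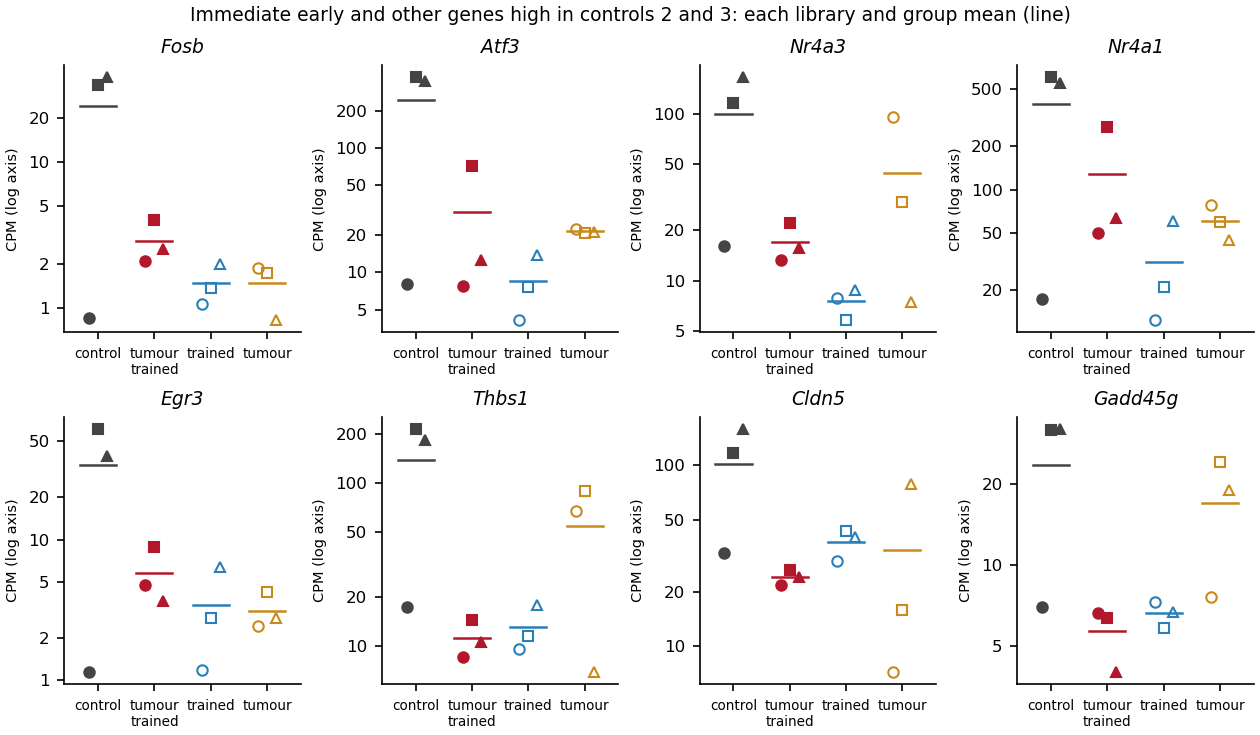
Levels of 5 immediate early genes and of Thbs1, Cldn5 and Gadd45g in CPM (y axis, log scale) in each library of the 4 groups (x axis); circles, squares and triangles are libraries 1, 2 and 3, lines are group means. Control 1 lies far below controls 2 and 3 in all 8 genes, and no trained or tumour trained library reaches those 2 controls.

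Beyond the clock, the genes with the largest changes or the smallest p included a secreted matrix protein, a p53 target and vessel and splicing regulators. Spon2, a secreted matrix protein, was at 12.2, 13.3 and 12.9 CPM in controls and 3.37, 3.88 and 6.1 CPM in tumour trained hearts (log2 -1.52 ± 0.20, adjusted p = 0.00239; -1.36 with GC correction), and passed in 22 of 24 other settings. It was at 12.7, 14 and 12.3 CPM in the trained hearts, level with the controls. Tumour 1, 2 and 3 were at 1.3, 5.53 and 4.14 CPM, with a low share of cardiomyocyte transcripts in tumour 1 and 2. Trp53i11, a gene induced by p53, was at 70.5, 94.8 and 105 against 36.7, 37.9 and 44.2 CPM (log2 -1.19 ± 0.13, adjusted p = 0.00174; -1.03 with GC correction). Spon2 and Trp53i11 were, with Per3, Tef and the provisional gene Gm4724 (0.67, 1.56 and 0.841 CPM in controls and 7.28, 10 and 9.36 CPM in tumour trained hearts; log2 3.09 ± 0.28, adjusted p = 0.00119; 2.67 with GC correction), the 5 genes called with 9 libraries. Gm4724 was named for that count, after its values were seen. The transcription factor gene Plag1 rose from 2.68, 3.7 and 3.16 to 9.07, 9.49 and 9.47 CPM (log2 1.54 ± 0.17, adjusted p = 0.00174; 1.22 with GC correction), while trained 1, 2 and 3 were at 9.19, 3.63 and 7.34 CPM. The splicing kinase gene Clk1 rose from 21.7, 23.4 and 21.4 to 52, 65 and 52.7 CPM (log2 1.34 ± 0.11, adjusted p = 0.000858; 0.86 with GC correction). The angiopoietin gene Angpt1, a ligand that stabilises vessels, rose from 7.47, 12.8 and 14.4 to 32.9, 38.7 and 26.2 CPM (log2 1.50 ± 0.21, adjusted p = 0.00276; 1.03 with GC correction, adjusted p = 0.0183). Ankrd23, a titin-binding stretch protein, fell from 789, 803 and 980 to 476, 495 and 513 CPM (log2 -0.80 ± 0.08, adjusted p = 0.00163; -0.64 with GC correction). Cited4, a gene tied to exercise-type heart growth and known to rise with it, was at 32.4, 38.8 and 44.2 against 16.6, 20.7 and 16.1 CPM (log2 -1.12 ± 0.14, adjusted p = 0.00207; -0.87 with GC correction), and at 20.4, 29.4 and 22.2 CPM in trained hearts.

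The other genes among the 15 with the largest rises were low in GC content and at low levels. Ankrd12, a nuclear ankyrin repeat protein, was at 3.06, 4.97 and 8.94 CPM in controls and 19.8, 17.7 and 19.5 CPM in tumour trained hearts (log2 1.75 ± 0.27, adjusted p = 0.00345; 1.32 with GC correction). Cenpf, a kinetochore protein, was at 5.27, 10.1 and 8.62 against 20.9, 22.4 and 28 CPM (log2 1.56 ± 0.20, adjusted p = 0.00239; 1.30 with GC correction), and Sgo2a, which protects sister chromatid cohesion, at 2.01, 3.7 and 5.05 against 8.65, 14.3 and 10.5 CPM (log2 1.64 ± 0.29, adjusted p = 0.00573; 1.23 with GC correction). The replication stress gene Etaa1 rose by 1.74 (adjusted p = 0.0084; 1.30 with GC correction). Genes of the Zfp zinc finger series made up 6 of the 15: Zfp960 and Zfp763 passed with GC correction (log2 1.19 and 1.24, adjusted p = 0.0342 and 0.0291), whereas Zfp119a, Zfp160, Zfp72 and Zfp984, with log2 changes of 1.73, 1.62, 1.62 and 1.50, did not (adjusted p = 0.0579, 0.0697, 0.0678 and 0.188). Zfp984 was not called without control 2, tumour trained 1 or tumour trained 3 (adjusted p = 0.0745 to 0.115). Trained 1 and 3 lay high and trained 2 low in these genes too, for example at 20.8, 7.61 and 16.6 CPM for Ankrd12 and 43.2, 12.3 and 19.6 CPM for Cenpf. Among the genes with the smallest p, the phospholipase gene Pnpla8 rose from 60.8, 75.2 and 73.7 to 133, 141 and 135 CPM (log2 0.96 ± 0.09, adjusted p = 0.00119; 0.48 with GC correction), and the magnesium transporter gene Slc41a3 fell from 132, 140 and 153 to 83.6, 81.2 and 91.3 CPM (log2 -0.74 ± 0.08, adjusted p = 0.00174; -0.58 with GC correction). Rtn4r, the Nogo receptor, was at 9.19, 9.36 and 11.3 against 3.48, 3.24 and 5.68 CPM (log2 -1.27 ± 0.21, adjusted p = 0.00502; -1.05 with GC correction).

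Of 26 tested genes of exercise-type growth and energy signalling 8 were higher and 6 lower (30.8% and 23.1%, against 12.8% and 7.58% of all tested genes), with a median log2 change of -0.07 (-0.01 over all tested genes). The kinase gene Pik3ca was higher in both fits (log2 0.66 ± 0.07, adjusted p = 0.00174; 0.28 with GC correction, adjusted p = 0.035). Ppargc1a, the coactivator of mitochondrial growth, was at 101, 110 and 94.1 against 138, 137 and 162 CPM (log2 0.51 ± 0.09, adjusted p = 0.00573) and did not pass with GC correction (0.16, adjusted p = 0.269). The endothelial nitric oxide synthase gene Nos3 was lower in both (log2 -0.56 ± 0.11, adjusted p = 0.00814; adjusted p = 0.0347 with GC correction). With GC correction 1 gene of the list was higher and 2 were lower.

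Ubiquitin ligase genes of muscle wasting passed in both directions. Fbxo32, the ubiquitin ligase atrogin-1, was at 143, 176 and 167 CPM in controls and 208, 232 and 238 CPM in tumour trained hearts (log2 0.47 ± 0.09, adjusted p = 0.00672; 0.34 with GC correction, adjusted p = 0.0416). Trained hearts were at 239, 177 and 205 CPM. Trim63, the ligase MuRF1, was at 239, 269 and 306 against 227, 241 and 248 CPM and did not pass (log2 -0.19 ± 0.09, adjusted p = 0.14). Fbxo40, a ligase that targets insulin receptor substrate, fell (log2 -0.34 ± 0.06, adjusted p = 0.0064; adjusted p = 0.0183 with GC correction). Of 26 tested genes of atrophy and autophagy 4 were higher and 3 lower (15.4% and 11.5%, near the 12.8% and 7.58% of all tested genes), and 3 and 2 with GC correction.

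The contractile genes showed small and opposed differences. The cardiac actin gene Actc1 fell from 17406, 16063 and 17967 CPM in controls to 13308, 10882 and 13924 CPM in tumour trained hearts (log2 -0.44 ± 0.08, adjusted p = 0.00697; -0.35 with GC correction, adjusted p = 0.0341). The troponin gene Tnnt2 rose from 7918, 8539 and 7912 to 9939, 10865 and 9959 CPM (log2 0.33 ± 0.05, adjusted p = 0.00479; 0.38 with GC correction, adjusted p = 0.00924). Of 29 tested sarcomere genes 6 were higher and 5 lower (20.7% and 17.2%, against 12.8% and 7.58% of all tested genes). With GC correction 6 were higher and 3 lower (20.7% and 10.3%, against 3.30% and 3.66%). In calcium handling, the triadin gene Trdn, which anchors the release channel, rose in both fits (47.6, 68.6 and 84 against 135, 148 and 146 CPM; log2 1.10 ± 0.16, adjusted p = 0.00296; 0.52 with GC correction, adjusted p = 0.0278). The myosin gene Myh7b passed only with GC correction (48.3, 54.8 and 74.4 against 74.2, 78.6 and 66.8 CPM; log2 0.30 ± 0.14, adjusted p = 0.144; 0.49 and adjusted p = 0.0432 with it). The calcium pump gene Atp2a2 was at 19818, 18965 and 17057 against 16942, 16725 and 18834 CPM and did not pass (log2 -0.10 ± 0.07, adjusted p = 0.338). Pln, the inhibitor of that pump, was higher (log2 0.40 ± 0.07, adjusted p = 0.0064) and turned to -0.11 with GC correction (adjusted p = 0.44). Of 20 tested calcium genes 3 were higher and 1 lower (15.0% and 5.00%, near the shares of all tested genes), and 1 and 0 with GC correction. Of 28 tested ion channel genes 4 were higher and 3 lower, among them the inward rectifier gene Kcnj2 (log2 0.78 ± 0.16, adjusted p = 0.0105; adjusted p = 0.0726 against control 1 alone). The shares of ion channel genes, 14.3% and 10.7%, were near the 12.8% and 7.58% of all tested genes. With GC correction 0 of the 28 passed. The orphan receptor gene Gpr22, expressed in heart muscle, was at 15.7, 17.1 and 29.1 against 40.4, 49.6 and 43 CPM (log2 1.10 ± 0.19, adjusted p = 0.00573) and did not pass with GC correction (0.46, adjusted p = 0.103).

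In metabolism, the lipoprotein lipase gene Lpl, which frees fatty acids for the heart, was higher in both fits. It was at 3540, 4909 and 4895 CPM in controls and 6998, 8303 and 7687 CPM in tumour trained hearts (log2 0.78 ± 0.11, adjusted p = 0.00296; 0.53 with GC correction, adjusted p = 0.023), and at 6562, 3541 and 6808 CPM in trained hearts. Of 37 tested genes of fatty acid uptake and oxidation 4 were higher and 3 lower, near the share over all genes, and 2 and 2 with GC correction. Pdk4, which blocks glucose oxidation, was at 376, 766 and 978 against 417, 886 and 511 CPM and did not pass (log2 -0.23 ± 0.32, adjusted p = 0.656), nor did the uncoupling protein gene Ucp3 (41.3, 61.8 and 79.2 against 76.7, 77.4 and 69.1 CPM; log2 0.29 ± 0.18, adjusted p = 0.277). Of 25 tested glucose genes 2 were higher and 11 lower, with a median log2 change of -0.18. The glycogen synthase gene Gys1 (log2 -0.39 ± 0.06, adjusted p = 0.00438) and the pyruvate kinase gene Pkm (-0.33 ± 0.06, adjusted p = 0.0052) were among the lower ones. With GC correction only Gys1 of the 25 passed (-0.24, adjusted p = 0.0418), and the transcripts of this list had a median GC content of 54%, against 49.9% over all tested genes. Of 36 tested genes of oxidative phosphorylation 2 were higher and 2 lower, and 0 and 4 with GC correction, with medians of -0.04 and -0.02.

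Matrix genes that passed were mostly lower. Col4a1, a collagen of basement membranes, fell from 783, 681 and 693 CPM in controls to 439, 421 and 523 CPM in tumour trained hearts (log2 -0.65 ± 0.09, adjusted p = 0.00276; -0.48 with GC correction, adjusted p = 0.0225). Tgfb1, the growth factor that drives fibrosis, fell from 46.7, 49.5 and 49.6 to 34, 35.5 and 36.9 CPM (log2 -0.46 ± 0.08, adjusted p = 0.00433; -0.36 with GC correction, adjusted p = 0.0239). Of 41 tested matrix and fibrosis genes 2 were higher and 13 lower, against 7.58% lower over all genes, with a median log2 change of -0.33. With GC correction 0 were higher and 4 lower (Thbs1, Col4a1, Tgfb1 and Col15a1), with a median of -0.19. The fibrillar collagen genes Col1a1 and Col3a1 did not pass (log2 -0.37 ± 0.13 and -0.07 ± 0.17, adjusted p = 0.0603 and 0.8). The VEGF receptor gene Kdr was lower in both fits (360, 315 and 309 against 267, 250 and 275 CPM; log2 -0.32 ± 0.08, adjusted p = 0.0184; adjusted p = 0.0332 with GC correction), and so was the endothelial cadherin gene Cdh5 (log2 -0.32 ± 0.06, adjusted p = 0.00777; adjusted p = 0.0468 with GC correction). Vegfa, the ligand, was lower without GC correction (log2 -0.43 ± 0.13, adjusted p = 0.0429) and did not pass with it (adjusted p = 0.125). Kdr was not called without tumour trained 1 or tumour trained 2 (adjusted p = 0.0612 to 0.0814), and Vegfa without control 2, control 3, tumour trained 1, tumour trained 2 or tumour trained 3 (adjusted p = 0.0624 to 0.151), with robust dispersion (adjusted p = 0.0922) or against control 1 alone (0.357). The apelin gene Apln (log2 -0.44 ± 0.14, adjusted p = 0.056) and the connective tissue growth factor gene, listed as Ctgf (log2 -0.56 ± 0.30, adjusted p = 0.208; 0.50 against control 1 alone), did not pass. Of 23 tested vascular growth factors and receptors 2 were higher, Angpt1 and Nrp1, and 3 lower, Kdr, Tie1 and Vegfa (8.70% and 13.0%, near the 12.8% and 7.58% of all tested genes). With GC correction 1 was higher and 1 lower, and against control 1 alone 4 were higher and 3 lower, without Tie1 (adjusted p = 0.131). Of 8 endothelial markers 0 were higher and 4 lower, 0 and 2 with GC correction, and 1 and 2 against control 1 alone, where their median log2 change was -0.09 instead of -0.26. Their sum was at 1807, 1907 and 1773 CPM in controls and 1705, 1690 and 1748 CPM in tumour trained hearts, without overlap, while 18.0% of single tested genes also lay below every control. Its part in the vessel and basement membrane genes was not tested. In whole hearts, fewer cells of a type and less RNA per cell cannot be told apart.

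Interferon and antigen presentation genes split by direction. The interferon regulator Irf7 (log2 -0.66 ± 0.12, adjusted p = 0.00602) and the class II gene H2-Eb1 (-0.70 ± 0.14, adjusted p = 0.00958) and the class II chaperone Cd74 (-0.66 ± 0.13, adjusted p = 0.00932) were lower. With GC correction Irf7 and H2-Eb1 passed (adjusted p = 0.0357 and 0.0393) and Cd74 did not (adjusted p = 0.0678). H2-Eb1 was at 44.4, 69.9 and 58.9 CPM in controls and 38.8, 35.7 and 32.4 CPM in tumour trained hearts, and at 37, 38.8 and 33.6 CPM in trained hearts. The interferon-induced GTPase genes Iigp1 and Gbp4 were higher (log2 1.01 ± 0.21 and 0.80 ± 0.20, adjusted p = 0.0109 and 0.0189), but not with GC correction (adjusted p = 0.104 and 0.157). Iigp1 was not called without tumour trained 2 (adjusted p = 0.0532), nor with robust dispersion (adjusted p = 0.0659), and Gbp4 without control 2, tumour trained 1 or tumour trained 2 (adjusted p = 0.0628 to 0.0839). H2-Eb1 was not called against control 1 alone (adjusted p = 0.0842). B2m, the shared chain of class I molecules, was lower with GC correction alone (347, 429 and 354 against 341, 316 and 344 CPM; log2 -0.56 and adjusted p = 0.00702 with it, -0.18 ± 0.08 and adjusted p = 0.148 without it). Of 33 tested genes 5 were higher and 8 lower (15.2% and 24.2%), 0 and 5 with GC correction, and 5 and 3 against control 1 alone. Class II genes are near-identical to their paralogs in parts, and how reads shared between genes were counted is not given in the sources used here.

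Inflammatory and cell cycle genes passed at shares near or below those of all tested genes. Of 17 tested inflammatory genes 1 was higher, S100a9, a neutrophil alarmin (0.383, 0.682 and 1.26 against 1.79, 2.8 and 2.21 CPM; log2 1.55 ± 0.39, adjusted p = 0.0222; adjusted p = 0.0657 with GC correction), and 2 were lower (5.88% and 11.8%, against 12.8% and 7.58%). With GC correction 0 were higher and 1 lower. The summed neutrophil markers, which include S100a9 itself, were at 1.82, 2.73 and 4.84 CPM in controls and 5.8, 6.69 and 6.94 CPM in tumour trained hearts. Of the 2 tested members of that list S100a9 alone was higher, and 0 passed with GC correction. The part of these cells in the S100a9 difference was not tested. The chemokine gene Ccl2 was lower (4.02, 5.46 and 5.36 against 3.58, 2.16 and 1.37 CPM; log2 -1.06 ± 0.30, adjusted p = 0.0334; adjusted p = 0.0393 with GC correction). S100a9 was not called without control 2, tumour trained 2 or tumour trained 3 (adjusted p = 0.0634 to 0.0899), and Ccl2 without control 2, control 3, tumour trained 2 or tumour trained 3 (adjusted p = 0.086 to 0.111) or against control 1 alone (adjusted p = 0.262). Of 22 tested cell cycle genes 1 was higher, the thymidylate synthase gene Tyms (log2 0.36 ± 0.11, adjusted p = 0.0448), and 0 were lower. Tyms was not called in any fit that left out 1 library (adjusted p up to 0.17), by DESeq2 (0.11) or against control 1 alone (0.0699), and 0 of the 22 passed with GC correction.

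Markers of several other cells were measured as sums of their lists. Macrophage markers were at 368, 472 and 389 CPM in controls and 395, 327 and 424 CPM in tumour trained hearts, and fibroblast markers at 2343, 2453 and 2274 against 2327, 2217 and 2161 CPM. Red cell genes summed to 1118, 640 and 1675 CPM in controls and 906, 3191 and 2077 CPM in tumour trained hearts, ranges that overlap. Acta2, a smooth muscle actin gene, fell from 131, 171 and 101 to 77, 72.3 and 89.9 CPM (log2 -0.76 ± 0.16, adjusted p = 0.0115; adjusted p = 0.0289 with GC correction) but was not called without tumour trained 2 (adjusted p = 0.0577), nor with robust dispersion (adjusted p = 0.0554). The pericyte gene Rgs5 rose from 422, 546 and 490 to 732, 771 and 730 CPM (log2 0.61 ± 0.08, adjusted p = 0.00276; adjusted p = 0.0534 with GC correction). Smooth muscle and pericyte markers together, Rgs5 included, were at 1300, 1501 and 1261 CPM in controls and 1534, 1546 and 1579 CPM in tumour trained hearts, without overlap. Of the 8 tested members Rgs5 alone was higher and 2 were lower, with a median log2 change of -0.26, opposite in sign to the change of the sum. With GC correction 0 of these 8 were higher and 1 was lower, with a median of -0.13. Conduction and pacemaker genes summed to 9.29, 11.2 and 10.8 CPM in controls and 8.12, 7.44 and 7.05 CPM in tumour trained hearts, and mast cell genes to 10.4, 12.4 and 10.4 against 10, 7.98 and 8.52 CPM. Neither sum overlapped, and 18.0% of single tested genes also lay below every control. Of 2 tested conduction genes 1 was lower, and 0 with GC correction. Of 4 tested mast cell genes 0 passed in either fit. Wt1, a marker of the epicardium, was lower (8.71, 10.5 and 14.2 against 6.22, 4.1 and 5.79 CPM; log2 -1.05 ± 0.22, adjusted p = 0.00967; -0.93 with GC correction; adjusted p = 0.0799 against control 1 alone). Of the 2 tested mesothelial and epicardial markers 0 were higher and 1, Wt1, was lower, with a median log2 change of 0.43. The 7 markers of that list summed to 14.7, 10.7 and 14.3 CPM in controls and 30, 4.75 and 10.4 CPM in tumour trained hearts, ranges that overlap. The part of any of these cell types in the gene lists above was not tested.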

How the data were processed

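RNA sequencing of mouse hearts was compared in 3 tumour trained and 3 control libraries of a series of 12. The authors deposited 1 table of counts per gene: reads were mapped with HISAT2 2.2.1 and counted with featureCounts, per the submitters' processing notes. Since 7.09 to 7.32% of the values of the 6 libraries were not whole, they were treated as estimated counts as deposited and rounded. The notes name both GRCm39 and mm10, so the build is not settled. The table holds 17397 genes and 0 mitochondrially encoded genes, and 24 symbols that had turned into dates were restored.

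edgeR 4.0.16 (R 4.3.3) was run with TMM scaling and its filter on low counts, which removed 5042 genes and left 12355, followed by the quasi-likelihood test between the 2 groups with 4 residual degrees of freedom. Calls were made at an adjusted p (Benjamini-Hochberg) below 0.05, and ± gives the standard error of the log2 change. The script was tested on simulated data. Levels are CPM from 1 scaling over all 12 libraries, with no test for the trained and tumour groups. With 3 libraries a group, a single gene's exact permutation test cannot go below 0.10, so none was used.

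The GC correction took a loess curve (span 0.3, prior count 2) of log2 CPM on the GC content of the longest annotated transcript out of each library as an offset. 17288 of the gene IDs were found in the RefSeq table, and 12283 tested genes had a GC value. Alternatives were DESeq2 1.42.0, limma-voom (limma 3.58.1), other scalings, filters and sets of libraries.

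The members and gene lists were chosen with earlier results of these data known. Named genes are a fixed panel, up to 15 higher and 15 lower genes with the largest change among called genes whose groups did not overlap (mean log2 CPM of at least 1), up to 4 members of each list by smallest p, and the 5 with the smallest p in each direction. Provisional gene names were left out of the rankings. Any other gene was named after its values were seen, and some members of the lists are not reported here by name. Replicate pairs of the 6 libraries differed beyond sampling noise (chi-square per gene 3.67 to 11.2), so none were merged.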

Additional observations from a re-analysis of the deposited data

Results flagged for a closer look

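Trained 1 and 3, which the comparison does not use, departed from the controls in the same way as the tumour trained hearts. In the 1 in 5 genes with the lowest GC content their median log2 deviation from the control mean was 0.335 in trained 1 and 0.371 in trained 3, above the highest control (0.0854), while trained 2 was at -0.3 and tumour trained 1, 2 and 3 were at 0.349, 0.413 and 0.381. On the first principal component of the 9 control, trained and tumour trained libraries (45.8% of the variance) trained 1 and 3 lay at 16.7 and 16.1, tumour trained 1, 2 and 3 at 16.8, 22.8 and 20.2, the controls at -24.9 to -12.2 and trained 2 at -38.3. On the second component (15.6%) controls 2 and 3 lay at -21.8 and -21.1 and control 1 at 9.16. The difference was not tested, and its cause was not tested.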

How the results depend on the processing

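The count of 2519 called genes stayed within 1.5 times in 13 of 24 alternatives, among them DESeq2 (2123), limma-voom (2481) and control 1 as the only control (2198). It fell to 854 with GC correction, 777 with GC and length correction, 644 with GC correction and the replicate block, 37 with GC correction over 9 libraries, 1140 with GC correction and control 1 alone, 5 over 9 libraries, 0 over all 12 libraries (827 at an unadjusted p below 0.05), and 2, Per3 and Gm4724, against a minimum log2 change of 1. Leaving out 1 library gave 1020 to 2348. The cause was not tested; the common dispersion was 0.0099 with 6 libraries, 0.0195 with 9 and 0.0772 with 12. Deviations of same-numbered control and tumour trained libraries correlated at 0.14, 0.0573 and -0.0912, and those of differently numbered ones at -0.191 to 0.174. No pairing by number was thus seen over all genes, which cannot exclude it in single genes. In Dbp and Arntl replicate 1 stood at the same end of both groups, and in Per3 it did not. With the replicate block 2381 genes were called, and of the 105 named genes called Ciart and Tyms lost the call. Of the same 105, 32 lost it with GC correction, 37 with GC and length correction, 41 with GC correction and the block, 23 against control 1 alone, 22 with robust dispersion, 9 by limma-voom, 5 by DESeq2, and 2, Vegfa and Ckm, with library size alone as the scaling.

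Over the named genes and all alternatives, 48 of the values changed sign. Against control 1 alone, without and with GC correction, the log2 change was 1.92 and 2.02 for Atf3, 0.50 and 0.52 for Ctgf, 2.30 and 2.38 for Egr3, 2.79 and 2.88 for Fos, 1.71 and 1.87 for Fosb, 2.87 and 3.04 for Nr4a1, 0.62 and 0.80 for Per1, 0.07 and 0.06 for Nr4a3, 0.68 and 0.49 for Pdk4, and 0.07 and 0.06 for Sgk1. With GC correction and control 1 alone it was -0.03 for Kcnj2 and 0.09 for Trim63. With GC correction, GC and length correction, GC correction and the block, and GC correction over 9 libraries it was 0.03, 0.01, 0.03 and 0.03 for Col3a1, and 0.02 in each for Mt1 (0.10 with GC correction and control 1 alone). In the same order it was 0.05, 0.03, 0.05 and 0.05 for Myh6 (0.04 with GC correction and control 1 alone), and -0.11, -0.09, -0.10 and -0.11 for Pln (-0.30 with GC correction and control 1 alone). Over the fits without 1 library it ran from -0.25 to 0.08 for Col3a1, from -0.17 to 0.01 for Gclm, from -0.61 to 0.07 for Pdk4 and from -0.02 to 0.06 for Plin2. A count of 0 in a library allows up to 0.277 to 0.316 CPM, for counting error only, so genes near 1 CPM such as Gdf15 and S100a9 are limited by depth.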

Other observations

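Genes named zinc finger protein with the symbol Zfp, a family rich in DNA-binding repressors, were looked at because many stood among the largest rises. They were chosen after their values were seen. Of 323 tested Zfp genes 127 were higher and 6 lower (39.3% and 1.86%, against 12.8% and 7.58% of all tested genes), with a median log2 change of 0.46, against -0.01 over all tested genes. With GC correction 31 were higher and 1 lower (9.60% and 0.310%, against 3.30% and 3.66%), with a median of 0.30. Their transcripts had a median GC content of 44.5%, below the 49.9% of all tested genes. Of all genes with 31 to 44% GC 44.4% were called higher without GC correction, and of those with 44 to 48% GC 14.8%. Zfp949, which also passed with GC correction over 9 libraries (adjusted p = 0.0498, edgeR), was at 4.69, 3.7 and 3.68 CPM in controls and 9.91, 8.84 and 8.73 CPM in tumour trained hearts, and at 9.19, 4.84 and 8.51 CPM in trained hearts.

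The 37 genes called with GC correction over 9 libraries held further genes that the comparison does not describe, named here after their values were seen. Hey1, a Notch target in vessels and the heart, was lower (20.5, 19.4 and 23.2 CPM in controls against 10.9, 7.55 and 12.7 CPM in tumour trained hearts; log2 -1.02 ± 0.17, adjusted p = 0.00439; -0.92 with GC correction). Mcam, an adhesion molecule of vessel walls and melanoma cells, was at 82.8, 76.1 and 81.1 against 51.2, 48.6 and 58.6 CPM (log2 -0.61 ± 0.09, adjusted p = 0.00283; -0.48 with GC correction), and Cx3cl1, an endothelial chemokine, at 21.5, 21.6 and 27.5 against 14.9, 14 and 13.4 CPM (log2 -0.75 ± 0.12, adjusted p = 0.00433; -0.58 with GC correction). Ppp1r3c, which steers a phosphatase to glycogen, was at 235, 324 and 223 against 141, 185 and 167 CPM (log2 -0.67 ± 0.14, adjusted p = 0.011; -0.78 with GC correction). Among the higher genes, Rgs2, a brake on G protein signalling, rose from 32.5, 26 and 21.5 to 54.7, 76 and 53.6 CPM (log2 1.19 ± 0.17, adjusted p = 0.0029; 0.95 with GC correction). Pik3r1, the regulatory subunit of the kinase whose catalytic gene Pik3ca also rose, went from 71, 70.1 and 60.1 to 110, 117 and 111 CPM (log2 0.74 ± 0.08, adjusted p = 0.00174; 0.57 with GC correction). Ppm1k, the phosphatase that switches on breakdown of branched-chain amino acids, rose from 60, 72.6 and 79.5 to 130, 161 and 139 CPM (log2 1.01 ± 0.11, adjusted p = 0.00174; 0.57 with GC correction). In these genes no tumour trained library overlapped the controls, which held for 98.5% of all called genes.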
